A study of Homo sapiens with 8 samples.

Results

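The 4 mature miRNAs described here are both arms of the miR-342 hairpin (hsa-miR-342-3p and hsa-miR-342-5p) and both arms of the miR-345 hairpin (hsa-miR-345-5p and hsa-miR-345-3p), taken by name from a small RNA sequencing table that listed 3112 miRNAs, 1482 of them known. They were selected on their levels and 5p to 3p arm ratios in these same libraries, circSOD2-sh against NC, so their differences between the groups are given as descriptions without a test. The libraries came from 786-O cells, an established line of human clear cell renal cell carcinoma, in 2 groups of 4. The circSOD2-sh group received a short hairpin RNA plasmid against circSOD2, a circular RNA back-spliced from exons of the SOD2 gene, and the NC group received a negative control plasmid. Per the labels, plasmids were delivered with Lipofectamine and RNA was taken after 48 h, whereas the methods of the study describe lentiviral delivery and puromycin selection for stable knockdown. The labels do not say whether the libraries of a group came from separate cultures, so the spread between them may be technical. The level of circSOD2 itself was not analysed here.

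A miRNA hairpin is cut by Drosha in the nucleus and by Dicer in the cytoplasm into a duplex with a 5p and a 3p strand. One strand, the guide, is usually kept by an Argonaute protein, and the other, the passenger, is degraded. The guide recognises messenger RNAs mainly through its seed, the bases from position 2 to position 8. miR-342 is processed from an intron of EVL, a gene for an actin regulator of the Ena/VASP family, and miR-342-3p is known as an abundant miRNA of leukocytes. miR-345-5p is the usual guide strand of miR-345.

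The mature sequences are shown because the arms of a hairpin behaved differently and because their base composition is compared further on. They are from RefSeq on GRCh38.p14, 5′ to 3′, with the seed in capitals.
miR-342-3p: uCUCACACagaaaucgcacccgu
miR-342-5p: aGGGGUGCuaucugugauuga
miR-345-5p: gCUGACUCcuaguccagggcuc
miR-345-3p: gCCCUGAAcgaggggucuggag
The 4 seeds differed from each other, and 0 other mature miRNAs of the RefSeq table shared any of them. The longest stretch that a member shared with another mature miRNA was 10 bases for each miR-342 arm and 9 bases for each miR-345 arm, so reads of these arms were not split with a near-identical copy in that table.

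The hairpins show how the arms pair, with the 5p arm as the first and the 3p arm as the second stretch in capitals.
MIR342: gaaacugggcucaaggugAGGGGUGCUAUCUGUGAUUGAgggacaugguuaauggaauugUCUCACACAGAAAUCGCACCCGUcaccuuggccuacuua
MIR345: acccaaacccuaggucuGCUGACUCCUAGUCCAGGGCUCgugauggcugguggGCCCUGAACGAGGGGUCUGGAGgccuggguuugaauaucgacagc
In the GENCODE release 29 annotation of GRCh38, MIR342 (ENSG00000199082.1) lies on the plus strand at chr14:100109655-100109753. It falls in an intron of 8 EVL transcripts and in an exon of 0 of them. In the transcript EVL-201 it is intron 3, at chr14:100097659-100123538, and EVL is read on the same strand. MIR345 (ENSG00000198984.1) lies on the plus strand at chr14:100307859-100307956, 198105 bases after MIR342, and overlapped 0 annotated genes. The nearest gene start is that of SLC25A29, a mitochondrial carrier gene on the minus strand, 1311 bases away.

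Each NC library held between 6386872 and 9245044 listed counts and each circSOD2-sh library between 3743860 and 4208276. Known miRNAs took 36.2% to 41.9% of the NC counts but 95.1% to 96.5% of the circSOD2-sh counts, and the remainder was listed under names of newly predicted miRNAs. This difference separates the groups completely, and its part in the results below was not tested beyond a fit on known miRNAs alone. Levels are therefore given as normalized CPM, counts scaled to a common library total (CPM) after TMM adjustment, a method that sets the bulk of miRNAs equal between libraries. Depending on the library, 3 counts were worth 0.46 to 0.674 normalized CPM among the NC samples and 0.51 to 0.602 among the circSOD2-sh samples, and levels at or under it are read as at the floor of detection.

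miR-342-3p, the more abundant arm of its hairpin, was far higher in every circSOD2-sh library. Its normalized CPM was 10.9, 9.85, 12.8 and 7.64 in NC 1 to 4, from 71, 64, 75 and 34 counts. In circSOD2-sh 1 to 4 it was 376, 660, 459 and 430, from 2211, 3738, 2285 and 2418 counts. The groups did not overlap, and the lowest circSOD2-sh library stood 29.4-fold above the highest NC library. The mean went from 10.3 ± 2.15 to 481 ± 124 (SD, n = 4 each), a fitted log2 fold change of 5.54 with a standard error of 0.24. By mean level, miR-342-3p went from place 267 to place 75 among the known miRNAs.

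The 5p arm of the same hairpin did not share this change. miR-342-5p had 10, 7, 10 and 6 counts in NC and 5, 3, 1 and 7 counts in circSOD2-sh. Its normalized CPM was 1.53, 1.08, 1.71 and 1.35 in NC and 0.85, 0.53, 0.201 and 1.25 in circSOD2-sh. The groups overlapped, since circSOD2-sh 4 lay above NC 2, and 2 of the 4 circSOD2-sh libraries were at or under the floor. The means of 1.42 ± 0.269 and 0.706 ± 0.446 (SD, n = 4 each) differ by -1.004 on the log2 scale with TMM, and by -0.0084 when library totals replace TMM, so no direction can be given for this arm. It did not reach the minimum count for the fit.

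miR-345-5p was at or near the floor in NC and well measured in circSOD2-sh. The NC libraries held 4, 3, 3 and 3 counts of it, or 0.614, 0.462, 0.512 and 0.674 normalized CPM. The circSOD2-sh libraries held 394, 369, 277 and 390 counts, or 67.0, 65.2, 55.6 and 69.4 normalized CPM. Again no circSOD2-sh library came near an NC library, the smallest distance being 82.4-fold. The mean was 0.565 ± 0.0962 in NC and 64.3 ± 6.04 in circSOD2-sh (SD, n = 4 each), with a fitted log2 fold change of 6.79. Its standard error of 0.18, derived from the test statistic of the fit, is narrower than the counting error given below and understates the uncertainty. Because NC rests on 13 counts in all against 1430, the size of the change is loosely set. Summed over libraries, the ratio of normalized levels was 115.8 with an exact 95% interval of 67.5 to 218.1, which covers counting error only. The same ratio for miR-342-3p was 46.0, with an interval of 40.5 to 52.4.

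miR-345-3p stayed at the floor throughout. Its counts were 1, 0, 2 and 2 in NC and 2, 2, 0 and 0 in circSOD2-sh, so no library exceeded 3 counts and no fold change is given.

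**Figure D1:**
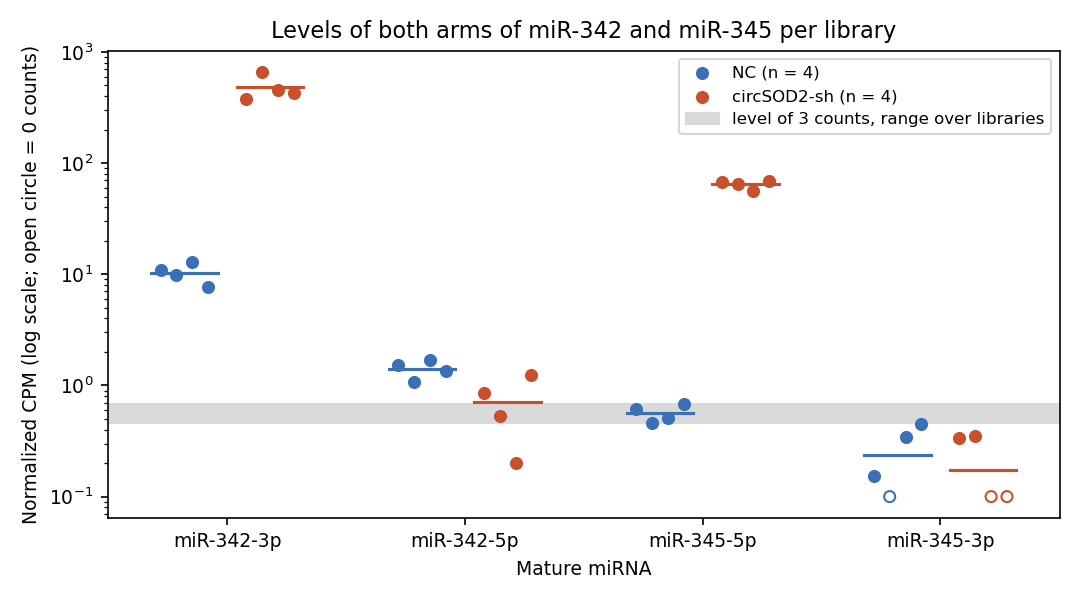
Normalized CPM (log axis) of the 4 mature miRNAs in each library, with NC in blue and circSOD2-sh in red, lines at the group means and a grey band for the level that 3 counts represent. The circSOD2-sh libraries sit at 376 to 660 for miR-342-3p and at 55.6 to 69.4 for miR-345-5p, above all NC libraries, while miR-342-5p overlaps between the groups and miR-345-3p lies under the band.

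Thus 1 arm of each hairpin, 2 of the 4 miRNAs, was above NC in all circSOD2-sh libraries. Over the 895 miRNAs tested, 28.5% had every circSOD2-sh library above every NC library, 33.3% were called higher and 32.4% lower by edgeR at an adjusted p under 0.05, and 2.35% had a fitted log2 fold change over 5. miR-345-5p and miR-342-3p stood in 7th and 10th place by log2 fold change among the 463 known miRNAs tested. These places belong to the contrast that chose the members.

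The arms can also be set against each other inside a library, which removes the scaling. The 3p arm held 87.7%, 90.1%, 88.2% and 85.0% of the miR-342 counts in NC 1 to 4. It held 99.77%, 99.92%, 99.96% and 99.71% in circSOD2-sh 1 to 4. Every circSOD2-sh library was higher, with the 5p arm close to vanishing beside the 3p arm. Over the summed counts the share was 88.1% in NC (244 of 277, Wilson 95% interval 83.7% to 91.4%) and 99.85% in circSOD2-sh (10652 of 10668, 99.76% to 99.91%). On the log2 scale, with 0.5 normalized CPM added to each arm, the 5p to 3p ratio was -2.48 ± 0.25 in NC and -8.69 ± 0.76 in circSOD2-sh (SD, n = 4 each), a change of -6.21.

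For miR-345 the NC libraries held too few reads to fix a proportion. The 5p arm had 4 of 5, 3 of 3, 3 of 5 and 3 of 5 counts in NC, a summed share of 72.2% with an interval of 49.1% to 87.5%. In circSOD2-sh it had 99.49%, 99.46%, 100% and 100%, or 1430 of 1434 counts when summed (99.7%, interval 99.3% to 99.9%). The circSOD2-sh libraries with 0 counts of the 3p arm allow it a share of up to 1.08% and 0.769%.

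**Figure D2:**
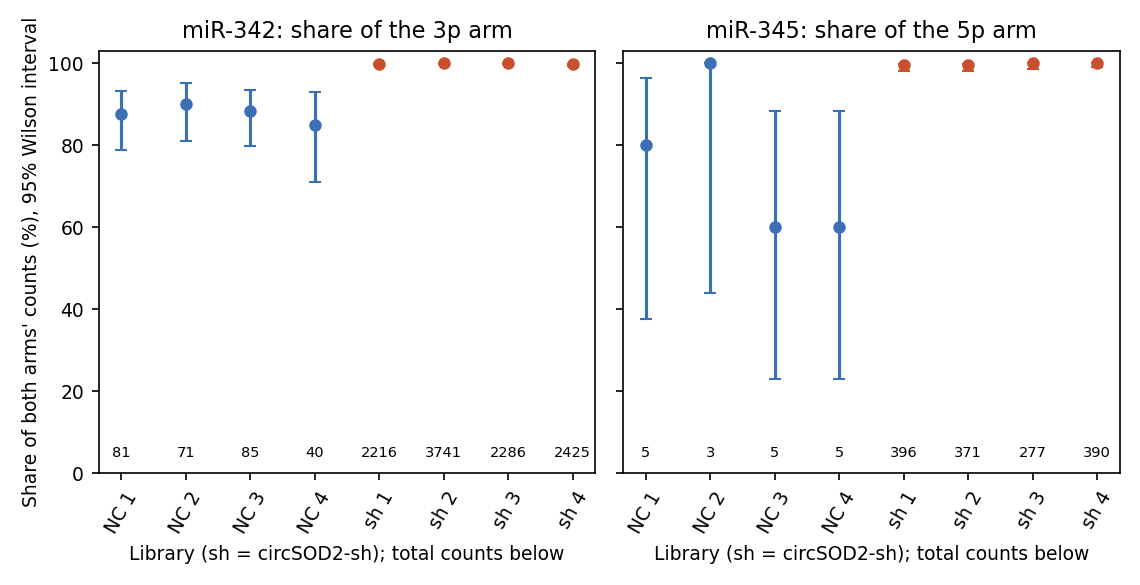
Share in percent of the more abundant arm in the counts of both arms, for miR-342 (3p arm, left) and miR-345 (5p arm, right), with 95% Wilson intervals that cover counting error only and the total counts of both arms printed above the library names. The miR-342 share is 85.0% to 90.1% in NC and above 99.7% in circSOD2-sh, and the NC intervals of miR-345 rest on 3 to 5 counts each.

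Arm ratios moved in many hairpins. Among 117 hairpins with both arms past the low-count filter, 58.1% changed their 5p to 3p ratio by limma at an adjusted p under 0.05, and the median size of the change was 0.60 on the log2 scale. Larger changes than that of miR-342 were found in 3 hairpins, miR-532 (-13.85), miR-106b and miR-23a, all toward the 3p arm. The nearest values were those of miR-23a at -6.84, miR-106b at -7.09 and miR-26b at -4.50. In miR-106b and miR-26b the 3p arm was the rarer one in NC. miR-106b-3p went from 2.44 ± 1.12 to 393 ± 29.9 normalized CPM while miR-106b-5p stayed at 121 ± 7.65 and 126 ± 13.3. miR-26b-3p went from 2.12 ± 0.817 to 36.1 ± 6.51 beside miR-26b-5p at 2682 ± 168 and 1705 ± 251. In miR-23a the arms moved apart, miR-23a-5p falling from 67.4 ± 3.35 to 7.79 ± 0.966 and miR-23a-3p rising from 568 ± 49.0 to 7951 ± 1178 (SD, n = 4 each). In miR-342 and miR-23a the arm that gained was already the major one in NC.

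miR-342-3p and miR-345-5p had similar profiles. With each profile centred on its own mean, each was the other's nearest neighbour over the 8 libraries among 462 known miRNAs, at a root mean square difference of 0.32 in log2(normalized CPM + 1). The median difference was 2.78 for miR-342-3p and 2.76 for miR-345-5p. Next came miR-4286, at 0.61 and 0.56, with 23, 5, 10 and 11 counts in NC and 372, 525, 270 and 344 in circSOD2-sh. miR-188-3p followed at 0.78 and 0.72, with 0, 0, 0 and 1 counts in NC and 79, 94, 85 and 85 in circSOD2-sh. All of these miRNAs were low in every NC library and higher in every circSOD2-sh library. Both members were chosen on the contrast that these profiles hold, so their closeness is a description only. The added 1 exceeds the NC mean of miR-345-5p (0.565 normalized CPM) and lessens its change, and no other constant was tried.

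The position of the hairpins was compared with that of their neighbours on chromosome 14. Within 1 Mb of MIR342 and MIR345 53 other annotated miRNA genes were matched to mature miRNAs, with MIR151B not among them and MIR329-2 counted with MIR329-1, most of them in the DLK1-DIO3 region, an imprinted domain whose miRNAs are made from maternally expressed non-coding transcripts. Of the 81 mature miRNAs listed from these genes, 27 could be tested, 8 were called higher and 0 lower, with a median log2 fold change of 0.70 and a range of -0.62 to 4.81. Over all 895 miRNAs tested, 33.3% were called higher and 32.4% lower, with a median of -0.0021. Among the 463 known ones, 125 were called higher and 132 lower, with a median of -0.11. The number of higher neighbours is near these shares, while the 0 lower calls are under them and the median of the neighbours is above. None of the 27 tested neighbours reached the log2 fold changes of miR-342-3p and miR-345-5p. Of the 54 listed neighbours that did not pass the low-count filter, 2 had a mean of at least 10 normalized CPM in a group, and both owed it to circSOD2-sh 2. miR-127-3p had 6, 3, 1 and 7 counts in NC and 5, 5296, 35 and 20 in circSOD2-sh, and its mean went from 0.781 to 237 normalized CPM. miR-136-3p had 1, 2, 1 and 0 counts in NC and 2, 797, 3 and 4 in circSOD2-sh, and its mean went from 0.158 to 35.6 normalized CPM. In circSOD2-sh 1 both had no more counts than in the highest NC library. The closest annotated miRNA is MIR151B, which lies 140 bases before MIR342 on the opposite strand. The counts of miR-151b were 98.0% to 98.6% of those of miR-151a-5p, so reads of the pair were shared and its value, a lower call outside the 27 (log2 fold change -0.30, standard error 0.09, edgeR adjusted p = 0.0143), cannot be assigned to the MIR151B gene.

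**Figure D3:**
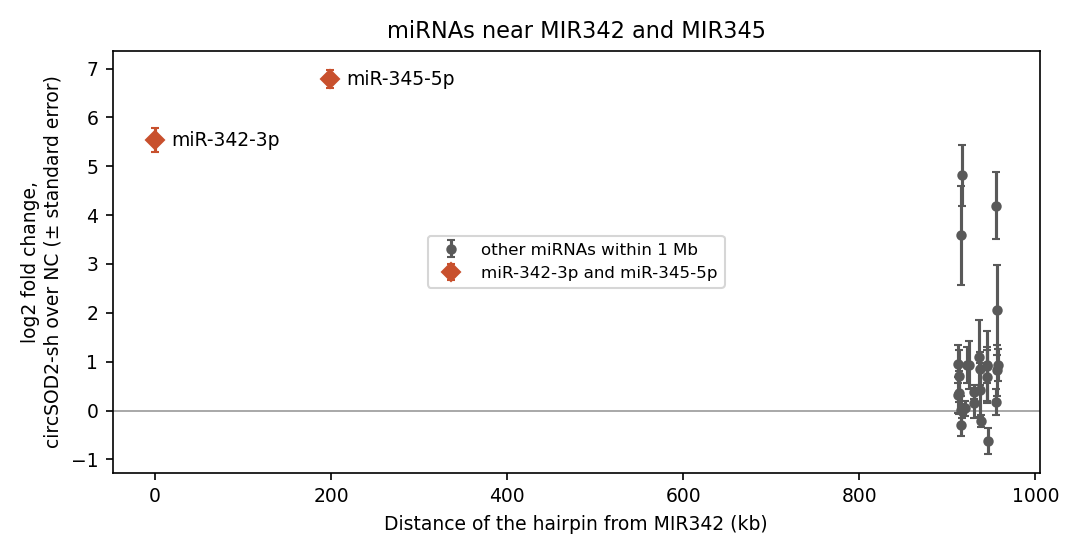
Fitted log2 fold change of circSOD2-sh over NC (± standard error) of the tested miRNAs against the distance of their hairpins from MIR342 in kb. miR-342-3p (5.54) and miR-345-5p (6.79) lie above the 27 tested neighbours shown, most of them in the DLK1-DIO3 region, which reach at most 4.81. The bar of miR-345-5p is narrower than its counting error. miR-151b and miRNAs that did not pass the filter are not drawn.

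In the DLK1-DIO3 list, 25 of 75 listed miRNAs could be tested, 8 were higher and 0 lower, with a median log2 fold change of 0.82 against -0.0021 over all miRNAs tested. Over all miRNAs tested 33.3% were higher and 32.4% lower. Of the 463 known ones 125 were higher and 132 lower, with a median of -0.11. The number higher in the list is near these shares, while 0 lower is under them. The 8 are the same as those counted among the neighbours above. Among the tested ones with a mean of at least 10 normalized CPM, which leaves out the untested miR-127-3p and miR-136-3p with their larger changes in the mean, miR-409-5p had the largest change, from 2.31 ± 0.51 to 42.8 ± 45.2 normalized CPM (log2 fold change 4.20, standard error 0.68, edgeR adjusted p = 0.000418). miR-381-3p (1.09) and miR-379-5p (0.95) followed and did not pass the test. The lowest were miR-323a-3p (-0.29), miR-889-3p (-0.22) and miR-758-3p (-0.01), which did not pass either. The summed level of the list was 1780 in circSOD2-sh 2 while circSOD2-sh 1, 3 and 4 held 223.7 to 264.9 and the NC libraries 207.7 to 219.1. Without NC 4 and circSOD2-sh 2, 5 were higher and 2 lower, and with library totals all 25 were higher. Of the members, miR-342-3p was highest in circSOD2-sh 2 (660 against 376, 459 and 430 normalized CPM), and miR-345-5p was lower there (65.2) than in circSOD2-sh 1 (67.0) and circSOD2-sh 4 (69.4).

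Some of the hairpins that sit in introns of protein-coding genes, as MIR342 does, were taken as another set, which is not complete. Of 58 listed miRNAs from 30 such hairpins, 42 were tested, 10 were higher and 12 lower, with a median log2 fold change of -0.05. Over the 463 known miRNAs tested, 125 were higher and 132 lower, with a median of -0.11. The counts of the list are near these shares and are not read as a trait of intronic hairpins. The largest changes were those of miR-106b-3p (7.36), miR-26b-3p (4.08) and miR-339-5p (3.77, from 32.8 ± 2.92 to 449 ± 30.8 normalized CPM), and the smallest those of miR-628-3p (-0.73), miR-26b-5p (-0.65) and miR-744-5p (-0.62). All 6 passed the edgeR test at adjusted p-values of 0.00395 or less. Within the list, only miR-106b-3p had a log2 fold change over 5, and with library totals 38 were higher and 0 lower. Over the 463 known miRNAs tested, 12 had a log2 fold change over 5. Among these, miR-532-3p (14.8), miR-188-3p (7.90), miR-26a-1-3p (7.73), miR-501-5p (6.11) and miR-362-3p (5.46) are not in the list. Whether they sit in such introns was not looked up, so the count over 5 does not extend to all intronic hairpins.

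Base composition was looked at after the values had been seen. In both hairpins the arm that was higher in circSOD2-sh was the one with more C than G. miR-342-3p holds 9 C and 3 G, and miR-342-5p, which pairs with it, 2 C and 8 G. miR-345-5p holds 8 C and 6 G, and miR-345-3p 5 C and 10 G. The same tendency ran through the known miRNAs. Over the 403 that were tested and have a RefSeq sequence, the number of C minus the number of G and the log2 fold change had a Spearman rho of 0.39 (Pearson r = 0.37). Without miR-342-3p and miR-345-5p rho was 0.38, and without NC 4 and circSOD2-sh 2 it was also 0.38. These are correlations across miRNAs, which share libraries and, within families, sequence, and no p is given.

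Of the 88 miRNAs with at least 4 fewer C than G, 0 had a log2 fold change over 2, and their median was -0.39. Of the 110 with 1 to 3 fewer C than G, 9 were over 2 (median -0.24), and of the 52 with as many C as G, 4 were (median -0.17). Of the 98 with 1 to 3 more C than G, the class of miR-345-5p, 21 were over 2 and the median was 0.17. Of the 55 with at least 4 more C than G, the class of miR-342-3p, 19 were over 2 and the median was 0.92. miR-342-3p (5.54) and miR-345-5p (6.79) lay above the medians of their classes. The part of base composition in the change of the members was not tested.

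**Figure D4:**
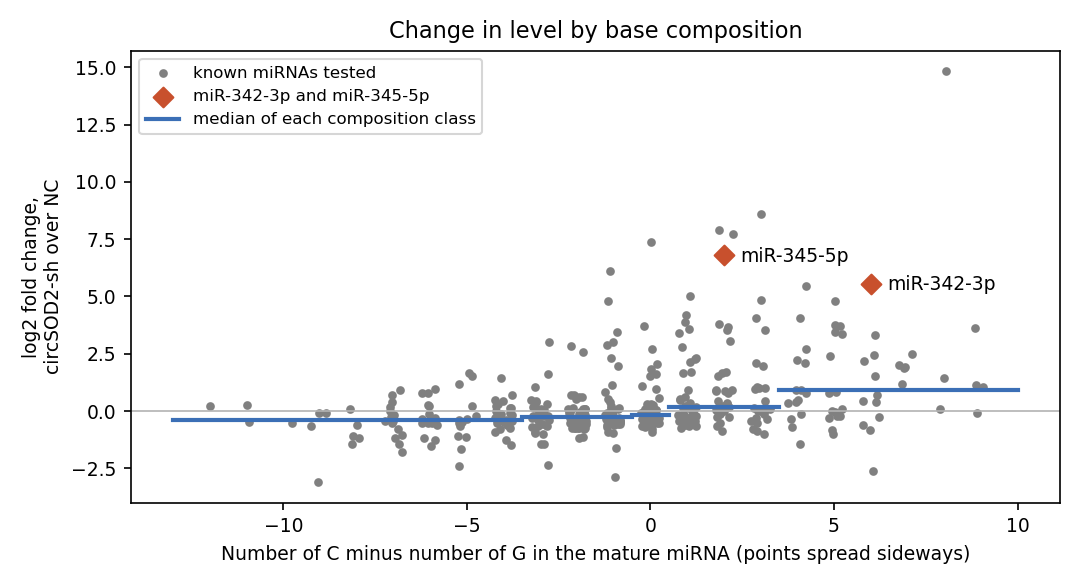
Fitted log2 fold change of circSOD2-sh over NC against the number of C minus the number of G for the 403 known miRNAs tested that have a RefSeq sequence, with blue bars at the median of each composition class. The medians go from -0.39 in the G-rich class to 0.92 in the C-rich class, and miR-342-3p and miR-345-5p lie well above the bars of their classes.

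Arm ratios showed the same direction. In 98 hairpins with sequences for both arms, miR-342 left out, the difference in C minus G between the arms and the change of the 5p to 3p ratio had a Spearman rho of 0.47 (Pearson r = 0.40). Where the 3p arm was the richer in C relative to G, 37 of 55 hairpins shifted toward the 3p arm, with a median change of -0.37. Where the 5p arm was the richer, 27 of 38 shifted toward the 5p arm, with a median change of 0.30. For miR-342 the difference between the arms was -12, and 7 of the 98 hairpins had a lower value.

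**Figure D5:**
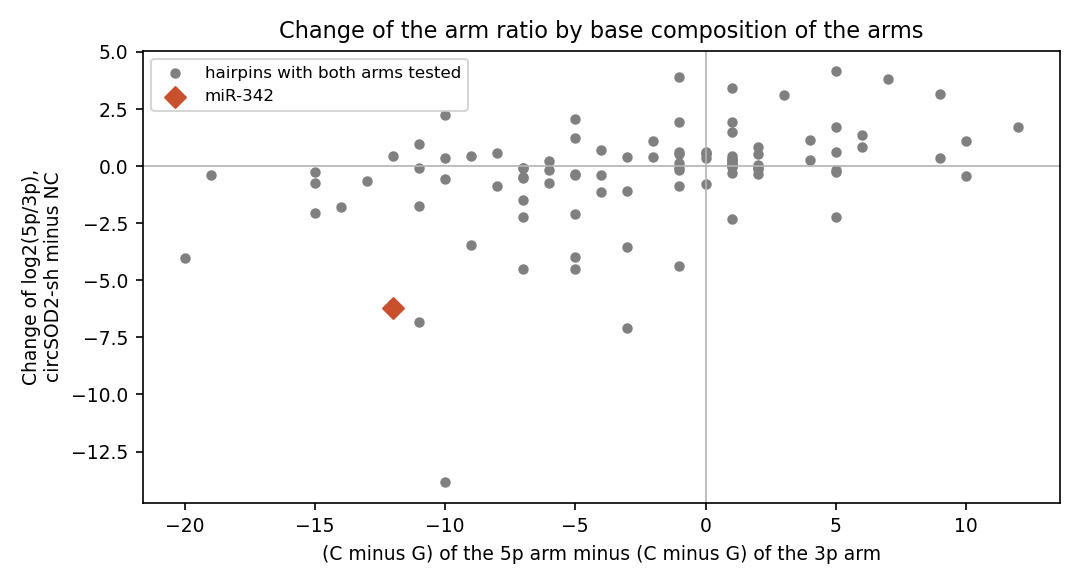
Change of log2(5p/3p), circSOD2-sh minus NC, against the C minus G of the 5p arm less that of the 3p arm, for 98 hairpins (grey) and miR-342 (red). Hairpins with a C-rich 3p arm lie mostly under 0, and miR-342 lies at -12 on the horizontal and -6.21 on the vertical axis.

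Because the study asked which miRNAs circSOD2 might bind, the circle was searched for seed matches of the members. The study named miR-342-3p and miR-345-5p among its candidates from the sequencing. After quantitative PCR in another cell line it kept other candidates, and not these, as potential targets. It was rebuilt from the GENCODE exons that meet at the junction the short hairpin RNA targets, giving 3 exons and 462 bases at chr6:159682474-159688242 on the minus strand. On the RNA strand, across the junction included, there were 0 copies of GTGTGAG for miR-342-3p, of GCACCCC for miR-342-5p, of GAGTCAG for miR-345-5p and of TTCAGGG for miR-345-3p, the DNA letters of the 7 bases opposite each seed. The 6 last letters of each match, which lie opposite positions 2 to 7, were searched too, and 0 copies were found for each miRNA. Each longer match, taken singly, occurs in 3.44% to 3.80% of 462-base stretches of other transcripts. Each shorter match, taken singly, occurs in 12.1% to 15.1% of them. Of the 403 known miRNAs tested with a sequence, 22 (5.46%) had a match of 7 bases in the circle. Absence of these letters says nothing of binding through other pairing.

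Markers of other cell types were read beside the members, since miR-342-3p is abundant in leukocytes. The 6 listed leukocyte miRNAs (miR-142, miR-150 and miR-223) summed to 1.19 to 2.16 normalized CPM in NC 1 to 3, and circSOD2-sh 1, 3 and 4 held 2.13 to 3.21. They summed to 17.1 in NC 4 and 14.8 in circSOD2-sh 2, mostly miR-142-5p with 71 and 46 counts, while miR-223-3p had at most 2 counts in each of the 8 libraries. NC 4 had the lowest and circSOD2-sh 2 the highest miR-342-3p of its group. Without these libraries the log2 fold change of miR-342-3p was 5.13. The summed ranges of the other lists in NC and circSOD2-sh were 26.8 to 172 and 21.6 to 60.03 for 5 erythroid miRNAs, 546 to 585 and 492 to 5311 for 12 neural ones, and 9.38 to 47.4 and 10.7 to 30.4 for 5 muscle ones. They were 7.39 to 557 and 8.00 to 228 for 4 stromal and smooth muscle miRNAs, 3.75 to 5.83 and 1.36 to 2.49 for 2 liver ones, and 376 to 1066 and 301 to 350 for 7 miRNAs of the kidney tubule, the tissue of origin. No summed marker list was higher in every circSOD2-sh library than in every NC library, and the liver and kidney tubule sums were lower in every circSOD2-sh library. Within the kidney tubule list, whose sum is mostly miR-192-5p, miR-204-5p went the way of the members, with 0.153, 0, 0 and 0.899 normalized CPM in NC and 1.53, 28.96, 1.40 and 1.25 in circSOD2-sh.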

How the data were processed

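Small RNA libraries were sequenced from 8 samples of 786-O cells. The deposited tables hold raw counts per miRNA and CPM that the authors computed over library totals larger than the sum of the listed counts. Per the submitters' processing notes, FastQC 0.11.2, Trimmomatic 0.36, Bowtie 1.1.1 and GRCh38 were used. The miRNA annotation and the counting tool were not given in the sources used here. A deposited table of the authors' own group means, fold changes and p-values was not used.

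Counts were filtered with filterByExpr (minimum count 10), scaled by TMM and fitted with the quasi-likelihood test of edgeR 4.0.16 (prior count 0.125, R 4.3.3), with Benjamini-Hochberg adjustment over all 895 miRNAs tested. Arm ratios, log2 of 5p over 3p with 0.5 normalized CPM added, were fitted with limma 3.58.1. DESeq2 1.42.0 and limma on the deposited CPM were alternatives. The edgeR and limma steps were checked on simulated data, with freshly drawn values in place of arm ratios for limma. The simulation was not built to hold the difference between the groups in the share of known miRNAs. It therefore says nothing of whether TMM suits these libraries. miR-342-5p and miR-345-3p did not pass the filter. Standard errors of log2 fold changes were derived from the test statistic of the edgeR fit. Floors are 3 counts per library, and intervals are Wilson or exact at 95% and cover counting error only.

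The members, the lists and the rules for naming miRNAs were chosen with earlier results of these data known. Named beside the members were the 3 nearest profiles, the 3 nearest arm-ratio changes, neighbours within 1 Mb, and the 3 largest and 3 smallest changes of 2 lists. The labels record no batch, so any batch that follows the groups cannot be told apart from them.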

Additional observations from a re-analysis of the deposited data

Results flagged for a closer look

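No level of a member stood apart within its group. In 9 of the 26 groups of 4 libraries examined, 1 library lay far from the other 3 by Dixon's criterion, which chance alone passes in about 1 group in 20. All 9 were summed lists of other miRNAs, and the library was NC 4 or circSOD2-sh 2 each time. NC 4 held 17.1 normalized CPM of the leukocyte list (others 1.19 to 2.16), 171.7 of the erythroid list (26.8 to 42.8), 47.4 of the muscle list (9.38 to 15.7), 557.4 of the stromal and smooth muscle list (7.39 to 8.70) and 1066 of the kidney tubule list (375.8 to 399.9). circSOD2-sh 2 held 1780 of the DLK1-DIO3 list (223.7 to 264.9), 14.8 of the leukocyte list (2.13 to 3.21), 5311 of the neural list (491.6 to 516.5) and 227.8 of the stromal and smooth muscle list (8.00 to 13.4). The part of these libraries in the values of miR-342-3p and miR-345-5p was not tested beyond leaving them out.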

How the results depend on the processing

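The higher miR-342-3p and miR-345-5p in circSOD2-sh and the shift of miR-342 toward its 3p arm kept their direction under all alternatives run. Library totals in place of TMM moved the median log2 fold change of all miRNAs tested from -0.0021 to 0.963. Under them miR-342-3p was at 6.49, miR-345-5p at 7.75 and miR-342-5p at -0.0084, 613 miRNAs were higher and 158 lower, the DLK1-DIO3 list had 25 higher, and the intronic list had 38 higher and 0 lower. limma on CPM plus 1 or plus 0.1 gave 6.16 and 6.34 for miR-342-3p, 5.80 and 7.32 for miR-345-5p, 559 and 553 higher and 163 and 163 lower. A prior count of 2 gave 6.15 for miR-345-5p, whose fold rests on 13 NC counts. A mean of at least 50 counts left 149 higher, and known miRNAs alone 123 higher and 123 lower, as fewer miRNAs were tested. Known miRNAs alone gave 5.58 for miR-342-3p, 6.84 for miR-345-5p and -0.94 for miR-342-5p. Without NC 4 and circSOD2-sh 2 miR-342-3p was at 5.13, the DLK1-DIO3 list had 5 higher and 2 lower, and the intronic list 15 lower. The cause of the other shifts was not tested.

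Leaving out 1 library at a time gave 5.24 to 5.61 for miR-342-3p, 6.63 to 6.82 for miR-345-5p, -1.53 to -0.84 for miR-342-5p, -6.45 to -5.98 for the miR-342 arm ratio, 256 to 303 higher, 279 to 358 lower and 63 to 71 arm ratios called. Equal replicate numbers did not pair the libraries (correlations 0.26, -0.099, 0.096 and -0.174). With the replicate block miR-342-3p was at 5.53, miR-345-5p at 6.79, the miR-342 arm ratio at -6.21, and 64 arm ratios were called against 68. Depth limits both minor arms and the NC level of miR-345-5p. The alternatives for base composition were chosen after seeing the data and left Spearman's rho across known miRNAs at 0.38 to 0.39 and across hairpins at 0.46.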
